A study of Mus musculus with 6 samples.

Results

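The genes described here are 37 genes of glutathione conjugation and of the response to the transcription factor NRF2, out of 15960 genes with FPKM values (fragment counts scaled to transcript length and to library size). They were taken by gene symbol, all 37 were present, and 35 of them reached the minimum for testing of 1 FPKM in at least 3 of the 6 samples, together with 9968 genes in all. They comprise 21 glutathione transferase genes (4 of class alpha, 7 mu, 2 pi, 3 theta and 5 others), 4 genes that make or recycle glutathione, 10 NRF2-regulated enzymes, and the regulator pair Nfe2l2 and Keap1. The study compared liver RNA of Cyp2e1-/- mice (knockout, 3 libraries) with that of Cyp2e1+/+ mice (wild type, 3 libraries). Mice of both genotypes carried the C57BL/6 background, were 22 weeks old, and had been fed a high-fat diet for 14 weeks. The labels give the knockout as a genotype only, with no tissue restriction, and do not say whether each library came from a separate animal. The p-values therefore measure the spread between these libraries.

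Glutathione is a tripeptide thiol that hepatocytes hold at high concentration. Glutathione transferases attach it to electrophilic compounds, among them reactive products of cytochrome P450 enzymes such as CYP2E1, and the conjugates are exported and broken down to mercapturates. NRF2, encoded by Nfe2l2, is held in the cytosol by KEAP1 and degraded. When electrophiles modify KEAP1, NRF2 accumulates, pairs with small MAF proteins and binds antioxidant response elements near transferase genes, the genes of glutathione synthesis and the genes of NADPH supply.

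Cyp2e1 checked the labels. It stood at 254, 247 and 271 FPKM in knockout replicates 1, 2 and 3 and at 7427, 5942 and 6071 FPKM in the wild type, a log2 fold change of -4.64 (SE 0.14; adjusted p = 6.7e-08 by limma, n = 3 each). Hepatocyte markers were abundant in every library, with a summed level over 12 of them of 49030 to 60006 FPKM. The libraries summed to 562590 to 624264 FPKM, and wild type replicate 1 was the highest. On the first principal component of the tested genes, which held 37.4% of the variance, replicate 1 of each genotype lay above the other 2 libraries of its genotype (9.29 against -17.5 and -22.6 in the knockout, and 21.2 against 3.04 and 6.52 in wild type). Results that rest on these libraries are given with and without them. With all 6 libraries 76 of 9968 genes passed the test (limma on log2(FPKM + 1), Benjamini-Hochberg adjusted p under 0.05), which is 0.762%.

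None of the 35 tested members passed that test, and most stood somewhat lower in the knockout. Of the 35, 27 had a negative log2 fold change and 8 a positive one, with a median of -0.165, against 5567 of 9968 tested genes (55.8%) with a negative value and a median of -0.028. At an unadjusted p under 0.05 there were 5 members (limma), namely Gstm6, Gstm4, Gstm3, Gsta4 and Nqo1, all lower in the knockout, where 9.93% of tested genes lay below that value, 5.89% on the lower side. With the replicate number as a block 12 members lay below it, all lower in the knockout (limma; the same 5 with Gsta1, Gsta2, Gstm1, Gstm2, Gstm7, Mgst1 and Pgd), where 13.1% of tested genes did. The labels do not say that equal replicate numbers pair libraries. The knockout value was the lower one in all 3 same-numbered pairs in 16 members, against 22.1% of tested genes, and the higher one in 2 (Txnrd1 and Srxn1), against 13.2%. Among the 16 were 10 whose genotypes overlapped (Gsta1, Gsta2, Gsta3, Gstm1, Gstm2, Gstm3, Gstm7, Gstt1, Gstz1 and Ugdh). In 6 members (Gstm6, Gstm4, Gsta4, Mgst1, Nqo1 and Pgd) every knockout library was below every wild type library, and in none was every knockout library above. Over all tested genes these shares were 10.0% and 5.32%. After each library was scaled to a common median ratio, the knockout values lay wholly below the wild type values in 3 members (Gstm6, Gstm4 and Nqo1) and wholly above them in 1 (Cbr1), against 7.32% and 8.07% of tested genes. After quantile normalization 4 members lay wholly below and 2 wholly above, against 7.76% and 8.29%. In bulk RNA, fewer cells of a type and less RNA per cell cannot be told apart.

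**Figure D1:**
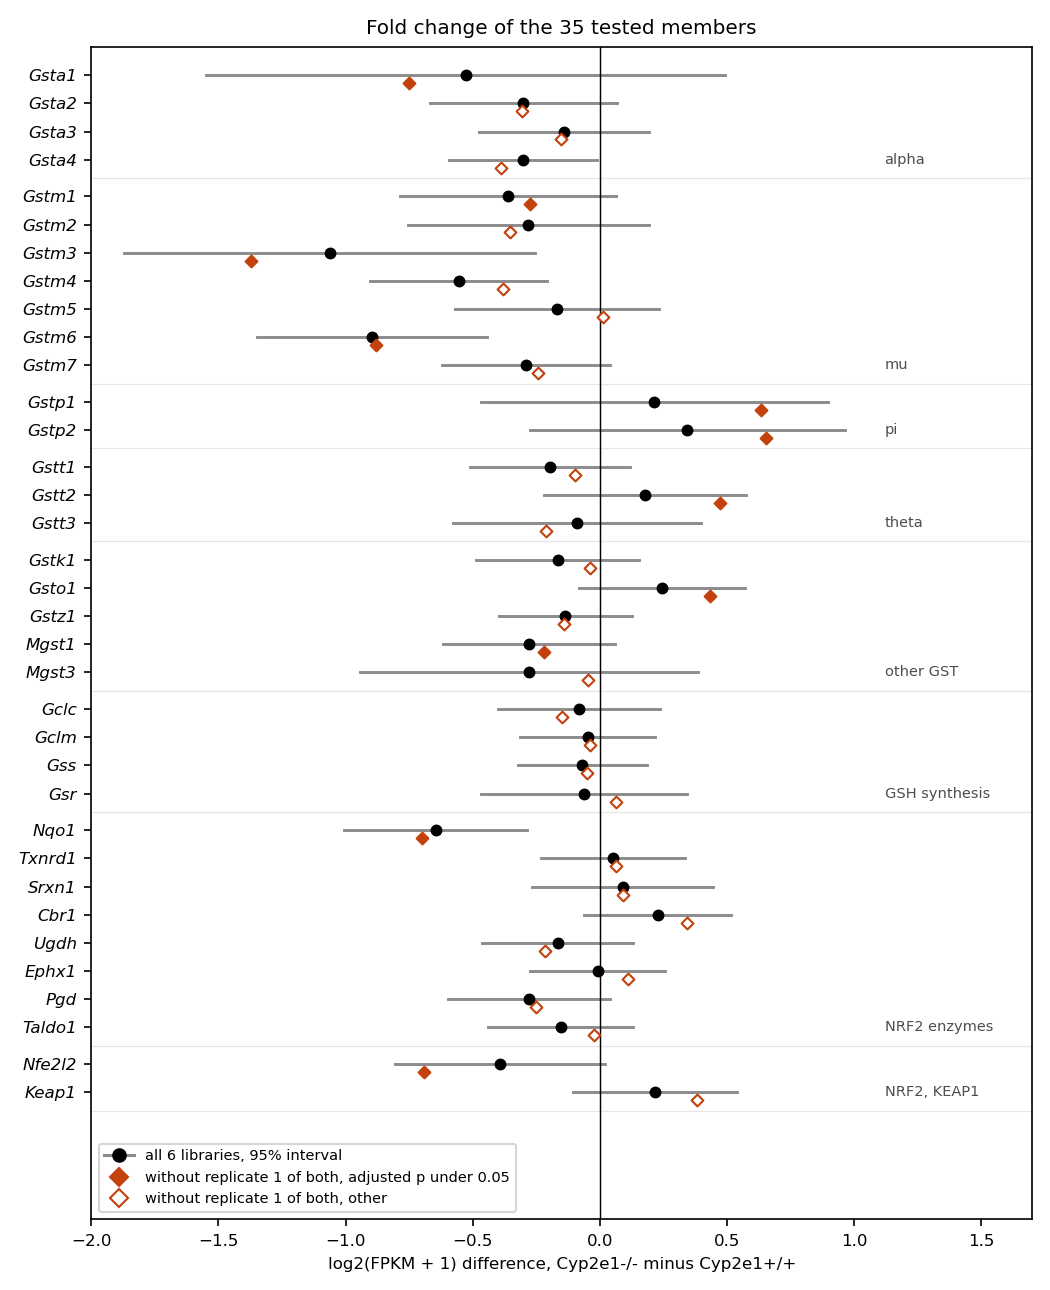
Black points give the log2(FPKM + 1) difference, knockout minus wild type, of each tested member with its 95% interval (limma, 3 libraries per genotype), and diamonds give the same difference without replicate 1 of both genotypes, filled where the adjusted p was under 0.05. With all libraries 27 of 35 points lie left of 0 and none passed the test over all genes, while 11 diamonds are filled.

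The mu class held the 2 most negative fold changes among the members. Its 7 genes, Gstm1 to Gstm7, lie together on chromosome 3 (107895854 to 108045179, GRCm38), a span of 149.3 kb, and all 7 had a negative log2 fold change, with a median of -0.36. Mu transferases conjugate epoxides, quinones and other electrophiles, and they make up much of the soluble transferase of rodent liver. Their summed level was 687, 530 and 524 FPKM in the knockout libraries and 1000, 698 and 621 FPKM in the wild type libraries.

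Gstm6 (gene 14867, chromosome 3, 107938847 to 107953641) stood at 21.9, 13.8 and 16.1 FPKM in knockout replicates 1, 2 and 3 and at 42.4, 29.2 and 27.5 FPKM in wild type replicates 1, 2 and 3. The genotypes did not overlap, and within each of them replicate 1 was the highest library. The means were 17.3 ± 4.20 and 33.0 ± 8.19 FPKM (SD, n = 3 each), the log2 fold change was -0.89 (SE 0.20; 95% interval -1.35 to -0.44), and the gene missed the threshold over all genes (limma adjusted p = 0.11). With the replicate number as a block, under which 0.722% of genes passed, Gstm6 was the only member that passed (limma adjusted p = 0.032). It also passed without knockout replicate 1 (log2 fold change -1.07, adjusted p = 0.025) and without replicate 1 of both genotypes (-0.88, adjusted p = 0.0013). Over all alternatives its adjusted p ran from 0.0013 to 0.42 (limma).

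Gstm3 (gene 14864, chromosome 3, 107963696 to 107969174) had the most negative fold change of the members and a wide spread. It stood at 20.9 FPKM in knockout replicate 1 and at 6.58 and 6.82 FPKM in knockout replicates 2 and 3. The wild type libraries held 28.7, 17.93 and 19.99 FPKM. Knockout replicate 1 thus lay among the wild type libraries, and at 3.12 times the mean of the other knockout libraries. The log2 fold change was -1.06 (SE 0.36; adjusted p = 0.33 by limma) with all libraries. It was -1.56 without knockout replicate 1 (limma adjusted p = 0.0039) and -1.37 without replicate 1 of both genotypes (limma adjusted p = 1.7e-04). Of the 31-base words in its transcript, 37.7% also occur in transcripts of other genes in GENCODE, most of them in Gm8834 (24.7%), so its fragments may have been divided.

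Gstm4 (gene 14865) held 10.5, 12.1 and 10.3 FPKM in the knockout libraries against 20.6, 14.8 and 14.8 FPKM in wild type, again without overlap. Its log2 fold change was -0.56 (SE 0.16; adjusted p = 0.21 by limma), and 3.37% of its words occur elsewhere, against 17.6% for Gstm6 (8.46% in Gstm3) and 34.3% for Gstm1. Gstm1 (gene 14862), the most abundant mu gene, held 572, 448 and 445 FPKM in the knockout libraries against 830, 579 and 503 FPKM in wild type. Here knockout replicate 1 exceeded wild type replicate 3, and the log2 fold change was -0.36 (SE 0.19; adjusted p = 0.59 by limma). Without replicate 1 of both genotypes Gstm1 passed the test (log2 fold change -0.27, limma adjusted p = 0.047). Gstm2, Gstm5 and Gstm7 had log2 fold changes of -0.28, -0.17 and -0.29, and none of them passed with all libraries or in either set without replicate 1. In wild type replicate 1 each of the 7 mu genes was at its highest of all 6 libraries, at 1.31 to 1.55 times the mean of the other wild type libraries.

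**Figure D2:**
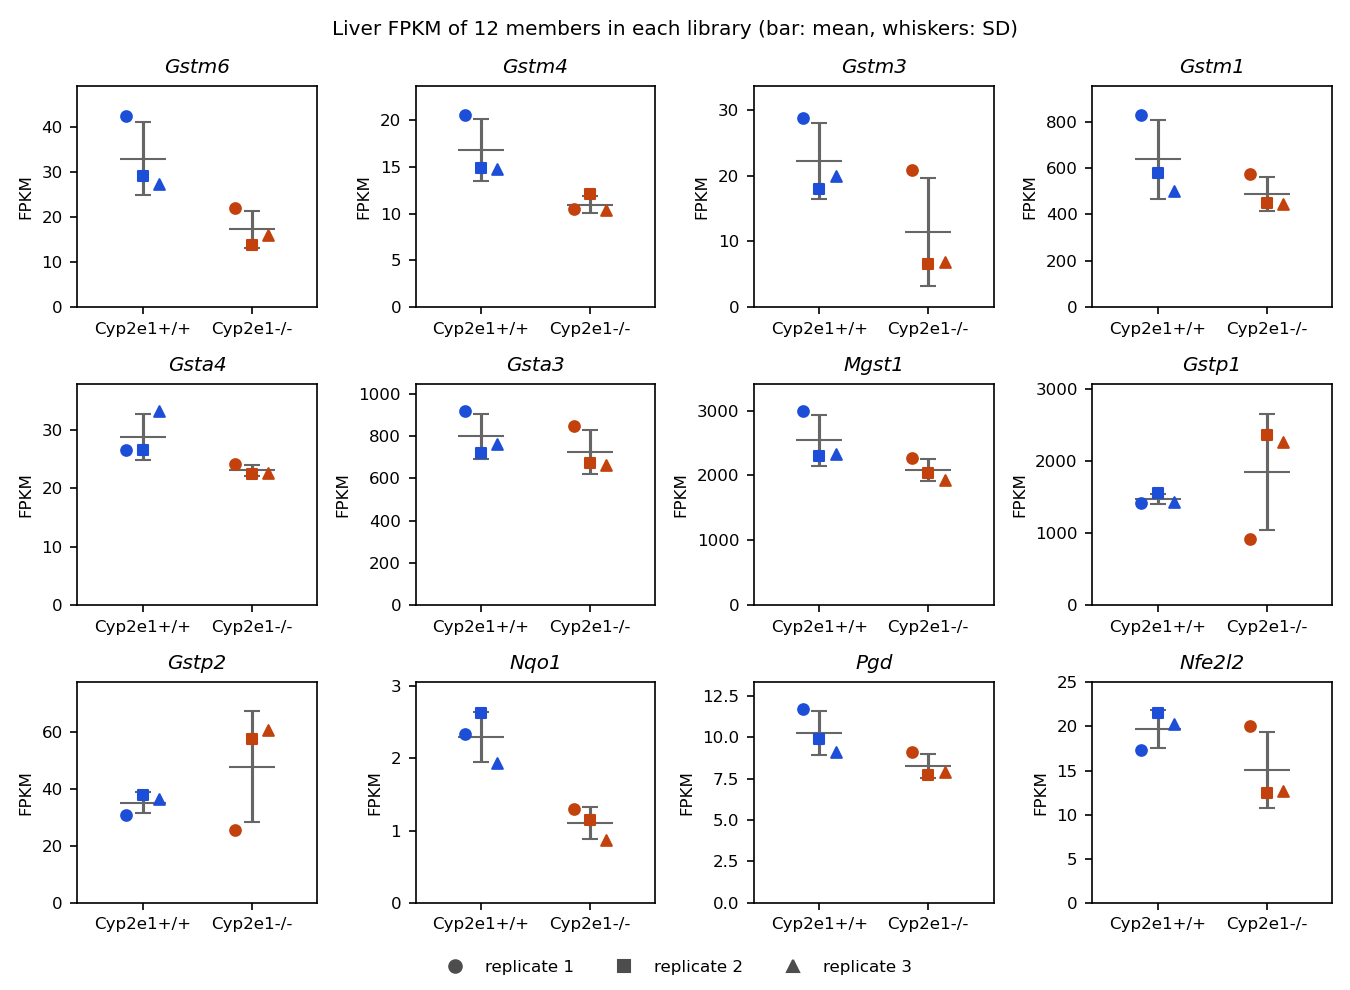
Each panel gives the FPKM of 1 member in the 3 wild type libraries (blue) and the 3 knockout libraries (orange), with the replicate number as the marker shape, the mean as a bar and the SD as whiskers. Gstm6, Gstm4, Gsta4, Mgst1, Nqo1 and Pgd do not overlap between genotypes, and knockout replicate 1 stands apart in Gstm3, Gstp1, Gstp2 and Nfe2l2.

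Alpha transferases, which also reduce lipid hydroperoxides and conjugate the aldehyde products of lipid peroxidation, had negative log2 fold changes in all 4 members, with a median of -0.30. Gsta4 (gene 14860, chromosome 9, 78191966 to 78209349), whose enzyme prefers 4-hydroxynonenal and related alkenals, held 24.1, 22.4 and 22.5 FPKM in the knockout. In wild type it held 26.4, 26.6 and 33.2 FPKM. Every knockout library was thus below every wild type library and the log2 fold change was -0.30 (SE 0.13; 95% interval -0.59 to -0.01; limma adjusted p = 0.48). Gsta3 (gene 14859, chromosome 1, 21240565 to 21265575), the most abundant alpha gene, held 846, 670 and 662 FPKM in the knockout libraries against 920, 718 and 762 FPKM in wild type. The genotypes overlapped, since replicate 1 was the highest library of both, and the log2 fold change was -0.14 (95% interval -0.48 to 0.19; limma adjusted p = 0.84).

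Gsta1 and Gsta2, which encode near-identical enzymes that are low in unstimulated mouse liver, were the least abundant transferases and the hardest to read. Gsta2 held 5.84 to 8.21 FPKM in the knockout libraries against 7.88 to 10.3 FPKM in wild type (log2 fold change -0.30, limma adjusted p = 0.60). Gsta1 held 2.88, 0.41 and 0 FPKM in the knockout libraries against 3.10, 0.96 and 1.04 FPKM in wild type, so that replicate 1 was the highest library of both genotypes. From the steps between low values these Gsta1 levels stand for about 27.2, 3.0 and 0 fragments in the knockout libraries against 21.8, 7.2 and 7.7 in wild type. Of the 31-base words of Gsta1, 92.2% occur in transcripts of other genes, 87.8% in Gm3776, and of those of Gsta2 75.6% do. Gsta1 passed without replicate 1 of both genotypes (log2 fold change -0.75, limma adjusted p = 0.049), a comparison of 2 libraries with 2 in which 1 library was listed at 0.

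Gstp1 and Gstp2, the 2 pi members, were higher in knockout replicates 2 and 3 than in any wild type library. Pi transferases are abundant in the liver of male mice and are known to add glutathione to the reactive quinone imine of acetaminophen, a product of CYP2E1. Gstp1 (gene 14870, chromosome 19, 4035411 to 4037912) stood at 923, 2363 and 2264 FPKM in knockout replicates 1, 2 and 3 and at 1422, 1548 and 1434 FPKM in wild type. Gstp2 (gene 14869, chromosome 19, 4040288 to 4042221) stood at 25.5, 57.4 and 60.6 FPKM in the knockout libraries against 30.9, 37.8 and 36.4 FPKM in wild type. For both genes knockout replicate 1 was the lowest of the 6 libraries and knockout replicates 2 and 3 were the highest, so that the knockout values enclosed the wild type values.

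With all libraries the log2 fold change was 0.21 for Gstp1 (SE 0.31; 95% interval -0.47 to 0.90) and 0.35 for Gstp2 (SE 0.28; 95% interval -0.28 to 0.97), and neither passed (limma, adjusted p = 0.90 and 0.76). Without knockout replicate 1 both passed as higher in the knockout, with log2 fold changes of 0.66 for Gstp1 (limma adjusted p = 0.030) and 0.74 for Gstp2 (limma adjusted p = 0.024), where 1.24% of genes passed as higher. Without replicate 1 of both genotypes the values were 0.63 and 0.65 (limma, adjusted p = 3.2e-04 and 0.0014). The sign for Gstp1 turned without knockout replicate 2 (log2 fold change -0.02, limma adjusted p = 0.999). The summed level of the 10 male-biased liver genes on a fixed list was also lowest in knockout replicate 1, at 2042 FPKM against 2761 to 2875 in the other knockout libraries and 2898 to 3836 in wild type. For 7 female-biased genes the sum was 21.6 FPKM in knockout replicate 1, 15.1 and 13.1 in knockout replicates 2 and 3, and 18.9 to 26.95 in wild type. Of these 7, 5 were under 1 FPKM in every library. The part of sex-biased expression in the pi values was not tested.

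Gstp1 and Gstp2 lie within 6.8 kb and share sequence, which bears on how far their values are separate measurements. Of the 31-base words of Gstp1, 67.5% occur in Gstp2, and of those of Gstp2 69.6% occur in Gstp1. The 200 bases before each start site are shown because the 2 genes moved alike over the libraries. They come from RefSeq (GRCm38.p6, minus strand, chr19:4037913-4038112 for Gstp1 and chr19:4042222-4042421 for Gstp2), and capitals mark TGAGTCA, a match to the AP-1 motif TGANTCA:
Gstp1: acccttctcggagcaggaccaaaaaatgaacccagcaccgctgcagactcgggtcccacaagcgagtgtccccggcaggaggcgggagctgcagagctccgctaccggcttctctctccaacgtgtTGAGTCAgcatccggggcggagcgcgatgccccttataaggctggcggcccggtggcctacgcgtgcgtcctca
Gstp2: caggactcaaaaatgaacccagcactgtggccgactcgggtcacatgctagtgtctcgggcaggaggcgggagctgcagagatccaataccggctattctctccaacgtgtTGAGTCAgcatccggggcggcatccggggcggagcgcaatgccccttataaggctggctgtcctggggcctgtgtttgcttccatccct

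The motif began at -74 in Gstp1 and at -89 in Gstp2, counted from the start site, inside a run of 34 identical bases. The motif reads the same on both strands. It was found in the 300-base promoters (250 bases before to 50 after a start site) of 4 of 33 members in the RefSeq table (Gstp1, Gstp2, Gstm5 and Srxn1), or 12.1%, and in those of 8.97% of all 27025 genes there. A match is a description of the letters and not of binding.

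Among theta transferases, which act on small halogenated and sulfate compounds, the 3 members differed in direction. Gstt1 (gene 14871), the most abundant, held 193, 184 and 170 FPKM in the knockout libraries against 254, 191 and 188 FPKM in wild type. The genotypes overlapped, and the log2 fold change was -0.20 (95% interval -0.51 to 0.12; limma adjusted p = 0.72). Gstt2 held 42.6, 66.67 and 60.05 FPKM in the knockout libraries against 57.1, 43.1 and 47.5 FPKM in wild type, with knockout replicate 1 the lowest of the 6 libraries, as in the pi class. Its log2 fold change was 0.18 (limma adjusted p = 0.82) with all libraries and 0.47 (limma adjusted p = 0.011) without replicate 1 of both genotypes. Gstt3 ranged from 7.0 to 13.4 FPKM in the knockout libraries against 8.22 to 11.9 FPKM in wild type (log2 fold change -0.09, limma adjusted p = 0.95).

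Of the other transferases, Mgst1 (gene 56615, chromosome 6, 138140527 to 138156755), a membrane-bound enzyme with peroxidase activity, had the highest mean level of the members in wild type. In knockout replicates 2 and 3 Gstp1 was higher. It held 2271, 2038 and 1936 FPKM in the knockout libraries against 2993, 2292 and 2334 FPKM in wild type. The genotypes did not overlap, but after median-ratio scaling they overlapped. The log2 fold change was -0.28 (SE 0.15; 95% interval -0.62 to 0.06; limma adjusted p = 0.59), and without replicate 1 of both genotypes it was -0.22 (limma adjusted p = 0.033). Gsto1, an omega enzyme that reduces rather than conjugates, held 40.2, 55.3 and 47.0 FPKM in the knockout libraries against 44.4, 35.7 and 39.3 FPKM in wild type. Its log2 fold change was 0.24 (limma adjusted p = 0.65), and it passed as higher without replicate 1 of both genotypes (0.44, limma adjusted p = 0.028).

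Mgst3, another microsomal transferase, had the widest spread of the tested members within wild type after Gsta1. It held 19.7, 11.4 and 6.90 FPKM in wild type and 11.4, 9.54 and 7.68 FPKM in the knockout, with full overlap (log2 fold change -0.28, limma adjusted p = 0.84). Gstz1, the zeta enzyme of tyrosine breakdown, held 375 to 425 FPKM in the knockout libraries against 420 to 462 FPKM in wild type (log2 fold change -0.13, limma adjusted p = 0.78). Gstk1, a mitochondrial and peroxisomal kappa enzyme, held 117 to 135 and 127 to 173 FPKM (log2 fold change -0.17, limma adjusted p = 0.78). Summed over all 21 transferases, these genes took 0.962% to 1.11% of all FPKM in the knockout libraries and 1.07% to 1.19% in the wild type libraries, with overlap.

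The 4 genes of glutathione synthesis and recycling differed least. Their log2 fold changes ran from -0.08 to -0.05, all overlapped between genotypes, and none had an unadjusted p under 0.05 (limma). Gclm (gene 14630), the modifier subunit of the rate-limiting ligase, held 43.3, 45.4 and 49.7 FPKM in the knockout libraries against 45.5, 51.6 and 46.0 FPKM in wild type (95% interval of the log2 fold change -0.31 to 0.22; limma adjusted p = 0.95). Gclc, its catalytic subunit, held 32.4 to 37.8 FPKM in the knockout libraries against 31.3 to 43.0 FPKM in wild type (95% interval -0.40 to 0.24). Gss, glutathione synthetase, held 24.8 to 27.5 FPKM in the knockout libraries against 26.6 to 27.5 FPKM in wild type (95% interval -0.32 to 0.19). Gsr, which returns oxidized glutathione to its reduced form, held 8.49 to 13.3 and 10.6 to 13.9 FPKM (95% interval -0.47 to 0.34). Differences of any size inside these intervals are compatible with these values. A gene could miss the threshold over all genes at a larger difference, as Gstm6 did.

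The NRF2-regulated enzymes did not move as a group. Of 8 tested, 5 had a negative and 3 a positive log2 fold change, with a median of -0.08. Nqo1 (gene 18104, chromosome 8, 107388225 to 107403205), the quinone reductase often used as a readout of NRF2, was low in all libraries. It held 1.30, 1.15 and 0.87 FPKM in the knockout libraries against 2.34, 2.62 and 1.93 FPKM in wild type, which stand for about 21.8, 14.7 and 11.2 fragments in the knockout libraries against 29.3, 35 and 25.4 in wild type. The genotypes did not overlap, and the knockout mean was 0.482 of the wild type mean. The log2 fold change was -0.65 (SE 0.16; 95% interval -1.01 to -0.29; limma adjusted p = 0.15), a difference of log2(FPKM + 1) that is smaller than the log ratio of the means for so low a gene. Nqo1 passed without replicate 1 of both genotypes (-0.70, limma adjusted p = 0.040), and over all alternatives its adjusted p ran from 0.013 to 0.55 (limma).

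Of the pentose phosphate enzymes, whose pathway supplies NADPH for the reduction of glutathione, Pgd and Taldo1 were tested and neither passed. Pgd, 6-phosphogluconate dehydrogenase (gene 110208), held 9.09, 7.73 and 7.91 FPKM in the knockout libraries against 11.7, 9.87 and 9.13 FPKM in wild type. These did not overlap, and after median-ratio scaling they did. For Pgd the log2 fold change was -0.28 (SE 0.14; adjusted p = 0.58 by limma). G6pdx, which opens the pathway, held 0.84, 0.82 and 0.91 FPKM in the knockout libraries against 0.99, 1.49 and 1.22 FPKM in wild type, and it was below the minimum for testing. Taldo1, transaldolase, held 70.4 to 77.5 FPKM in the knockout libraries against 73.7 to 94.0 FPKM in wild type (log2 fold change -0.15, limma adjusted p = 0.77).

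The remaining enzymes overlapped between genotypes. Ephx1, the microsomal epoxide hydrolase and the most abundant of the group, held 147, 173 and 164 FPKM in the knockout libraries against 174, 158 and 154 FPKM in wild type, a log2 fold change of -0.01 (95% interval -0.27 to 0.26). Cbr1, a carbonyl reductase, held 28.4, 32.2 and 30.4 FPKM in the knockout libraries against 28.5, 26.5 and 22.5 FPKM in wild type (log2 fold change 0.23, limma adjusted p = 0.62). Knockout replicate 1 lay just below wild type replicate 1, and the other knockout libraries lay above all of wild type. Txnrd1, thioredoxin reductase, and Srxn1, sulfiredoxin, had log2 fold changes of 0.05 and 0.09, and Ugdh, which makes UDP-glucuronic acid, one of -0.17. Cbr3 was at 0 to 0.49 FPKM in all libraries, at most about 4.7 fragments, and was not tested.

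**Figure D3:**
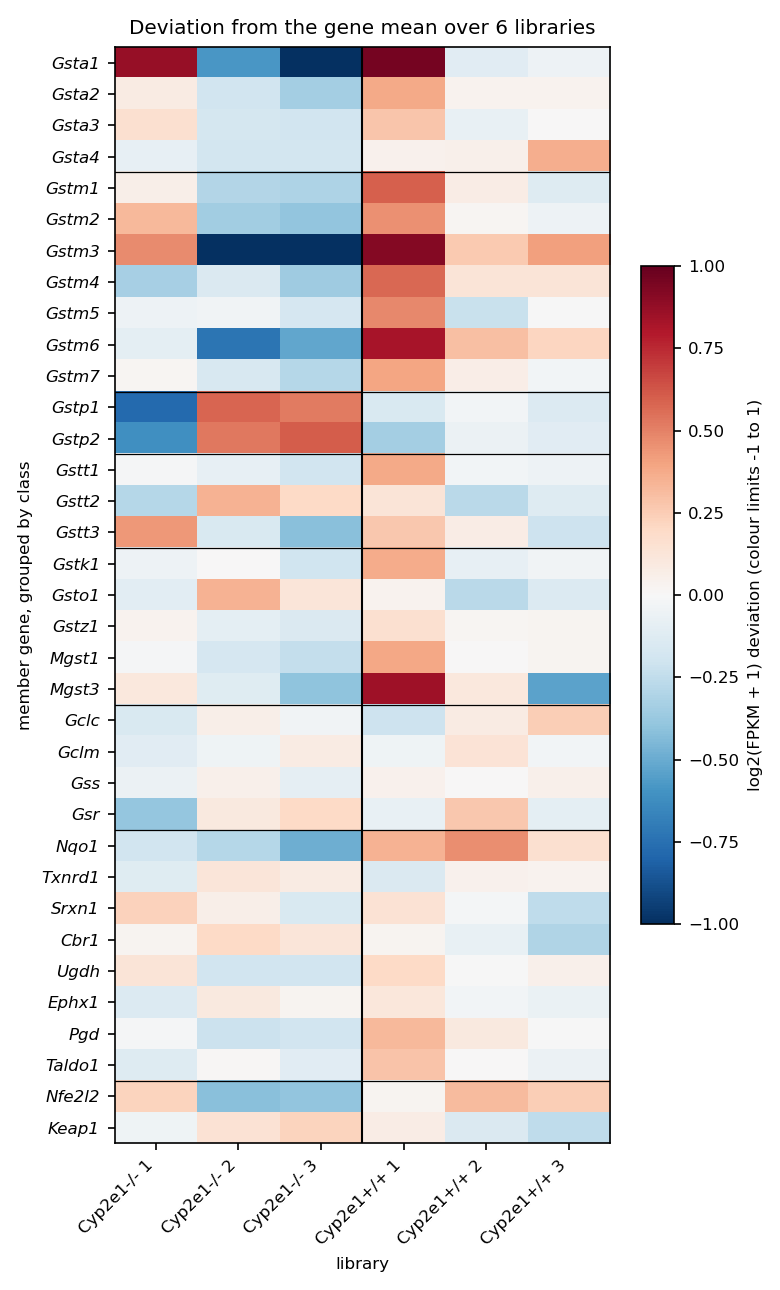
Colours give the deviation of log2(FPKM + 1) in each library from the mean of that gene over the 6 libraries, for the 35 tested members grouped by class, with colour limits at -1 and 1. Wild type replicate 1 is high across the mu class, and knockout replicate 1 goes against knockout replicates 2 and 3 in Gstm3, the pi class and Nfe2l2.

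Nfe2l2 (gene 18024, chromosome 2, 75675513 to 75704663), which encodes NRF2 itself, followed the pattern of Gstm3. It held 20.1, 12.4 and 12.7 FPKM in knockout replicates 1, 2 and 3 and 17.3, 21.5 and 20.3 FPKM in wild type. Knockout replicate 1 lay among the wild type libraries, and the other 2 knockout libraries lay below all of them. The log2 fold change was -0.39 (SE 0.19; 95% interval -0.81 to 0.02; limma adjusted p = 0.53). It was -0.60 without knockout replicate 1 (limma adjusted p = 0.065) and -0.69 without replicate 1 of both genotypes (limma adjusted p = 0.0033). Keap1, its cytosolic inhibitor, held 9.41, 10.8 and 11.5 FPKM in the knockout libraries against 10.3, 8.69 and 7.96 FPKM in wild type (log2 fold change 0.22, limma adjusted p = 0.69).

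The promoters of the members were searched on both strands for TGACNNNGC, a core of antioxidant response elements. Forms with other letters at its fixed places were not counted. In Gstp1, Gstp2 and Srxn1 the AP-1 match is followed by GC, giving TGAGTCAGC (in Srxn1 from -45). This has G where TGACNNNGC has C, so it was left out, and its binding by NRF2 was not tested. TGACNNNGC was present in 11 of the 33 members with a promoter in the RefSeq table (33.3%). It was present in 14.0% of all 27025 genes and in 16.6% of 12562 genes that also have FPKM values. The 11 were Gsta3, Gstm5, Gstm7, Mgst1, Gclm, Txnrd1, Srxn1, Ugdh, Pgd, G6pdx and Nfe2l2. In Pgd and Srxn1 the TGACNNNGC match lay after the start site, with its first base at 3 and 28. The window of Pgd (chr4:149166033-149166332) lies inside the gene (chr4:149149991-149166705). No promoter was matched for Gsta4, Gstt2, Gclc and Gsr. Of the 10 tested members with a core, 8 had a negative log2 fold change and 2, Txnrd1 and Srxn1, a positive one. This is near the share over all tested members, 27 of 35, and 55.8% of tested genes were negative. None of the 10 passed with all libraries. In Mgst1, Pgd and the untested G6pdx the knockout values lay wholly below those of wild type, as they did in 10.0% of tested genes. After median-ratio scaling Mgst1 and Pgd overlapped. No core was found in these windows of Gstm6, Gstm3, Gstm4 and Nqo1, which says nothing of elements outside them.

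To compare cores in members that stood lower with cores in members near 0, 5 are shown with up to 20 bases on either side, 5′ to 3′ on the strand of the gene (RefSeq, GRCm38.p6). For Gclm and Txnrd1 the start site used lies inside the gene (chr3:122245487-122267215 and chr10:82833951-82897724). Capitals mark the core, which is on the opposite strand in Mgst1, G6pdx, Gclm and Txnrd1. They lie at chr6:138140451-138140499 (Mgst1, plus strand, first base of the core at -56), chrX:74428909-74428957 (G6pdx, minus, -57), chr2:75704875-75704913 (Nfe2l2, minus, -240), chr3:122245403-122245451 (Gclm, plus, -134) and chr10:82859094-82859142 (Txnrd1, plus, -92):
Mgst1: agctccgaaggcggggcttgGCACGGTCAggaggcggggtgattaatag
G6pdx: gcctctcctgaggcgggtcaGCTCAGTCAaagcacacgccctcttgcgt
Nfe2l2: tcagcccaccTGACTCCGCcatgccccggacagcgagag
Gclm: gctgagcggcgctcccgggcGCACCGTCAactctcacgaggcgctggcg
Txnrd1: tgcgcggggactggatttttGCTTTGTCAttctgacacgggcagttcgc

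Further genes of the pathway were read from fixed lists. Of 20 tested further NRF2 targets none passed (limma), 15 had a negative log2 fold change and the median was -0.19, against -0.028 over all tested genes. At an unadjusted p under 0.05 there were 6 (limma; Ptgr1, Me1, Prdx1, Cyp2a5, Hmox1 and Aox1), all lower in the knockout, beside 5.89% of all tested genes on the lower side. The most abundant were the ferritin chains Ftl1 (2534, 3178 and 3061 FPKM in the knockout libraries, 3286, 2474 and 2417 in wild type) and Fth1 (1305, 1048 and 974 FPKM in the knockout libraries, 1417, 1110 and 1080 in wild type). Both overlapped between genotypes, with log2 fold changes of 0.11 and -0.12 (limma, adjusted p = 0.91 and 0.90). Of the 20, 3 (Me1, Nqo2 and Ptgr1) lay wholly lower in the knockout and 0 wholly higher, against 10.0% and 5.32% of tested genes. The log2 fold changes of Me1, Nqo2 and Ptgr1 were -0.30, -0.19 and -0.49 (limma, adjusted p = 0.41, 0.66 and 0.27). After median-ratio scaling 3 lay wholly lower (Me1, Ptgr1 and Aox1), against 7.32%. Hmox1, heme oxygenase, held 21.8, 14.3 and 11.1 FPKM in the knockout libraries against 22.9, 23.9 and 18.7 FPKM in wild type (log2 fold change -0.49, limma adjusted p = 0.49), with knockout replicate 1 again among the wild type libraries.

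Among 21 tested genes of glutathione turnover and transport none passed (limma), with 11 negative and 10 positive log2 fold changes and a median of -0.03. At an unadjusted p under 0.05 were 2 (limma), against 9.93% of all tested genes. The knockout values lay wholly below wild type in 4 and wholly above in 1, against 10.0% and 5.32%. Hagh, which hydrolyses S-lactoylglutathione, held 103, 131 and 119 FPKM in the knockout libraries against 162, 147 and 146 FPKM in wild type, without overlap (log2 fold change -0.36, limma adjusted p = 0.34). Slc25a39, the mitochondrial glutathione carrier, held 144, 158 and 159 FPKM in the knockout libraries against 158, 129 and 120 FPKM in wild type (log2 fold change 0.19, limma adjusted p = 0.71). Abcc2, which exports conjugates into bile, followed the replicate number rather than the genotype: it held 14.6 and 11.8 FPKM in replicate 1 of knockout and wild type, and 40.0 to 53.1 FPKM in the other 4 libraries.

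None of 12 tested partners and regulators of NRF2 passed (limma), and 2 had an unadjusted p under 0.05, against 9.93% of all tested genes. These were the small MAF partners Maff and Mafk, with log2 fold changes of 0.43 and 0.38 (limma adjusted p = 0.48 and 0.47). Of the 12, 2 (Mafk and Nfe2l1) lay wholly above wild type in the knockout and 0 wholly below, against 5.32% and 10.0% of tested genes. After median-ratio scaling 3 lay wholly above and 0 wholly below, against 8.07% and 7.32%. Nfe2l1, a related factor that binds the same elements, held 23.4, 28.7 and 30.6 FPKM in the knockout libraries against 21.9, 22.9 and 22.1 FPKM in wild type, wholly above (log2 fold change 0.28, limma adjusted p = 0.53). Rbx1, part of the ligase complex that acts with KEAP1, held 20.4 to 20.6 FPKM in the knockout libraries against 19.8 to 27.4 FPKM in wild type (log2 fold change -0.14, limma adjusted p = 0.83). Of 7 further transferase and MAPEG genes with FPKM values, 2 were tested and neither passed. Gstp3, another pi gene, held 32.3, 22.4 and 23.9 FPKM in the knockout libraries against 51.0, 32.1 and 28.2 FPKM in wild type (log2 fold change -0.46, limma adjusted p = 0.54), so that it did not follow Gstp1 and Gstp2 in knockout replicates 2 and 3. Alox5ap had a log2 fold change of 0.04.

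Transferase genes are also targets of the nuclear receptors CAR and PXR, and 9 xenobiotic receptors and targets from a fixed list were tested. Of these, 8 had a positive log2 fold change, with a median of 0.28, against 4401 of 9968 tested genes. Of the 9, 1 passed, against 0.762% of tested genes. That gene was Cyp2b10, a target of CAR, at 26.2, 20.7 and 18.5 FPKM in the knockout libraries against 5.24, 9.03 and 8.45 FPKM in wild type (log2 fold change 1.43, SE 0.20; limma adjusted p = 0.011). It rose to 21.8 ± 3.98 FPKM from 7.57 ± 2.04 (SD, n = 3 each), and with the replicate number as a block its adjusted p was 0.060 (limma). Over all alternatives it ran from 2.4e-04 to 0.067. In knockout replicate 1 Cyp2b10 was the highest of all libraries. At an unadjusted p under 0.05 there were 4 of the 9 (limma; Cyp2b10, Cyp3a11, Por and Nr1i2), against 9.93% of tested genes. The same 4 lay wholly above wild type, against 5.32%, and 1, Cyp1a2, lay wholly below, against 10.0%.

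**Figure D4:**
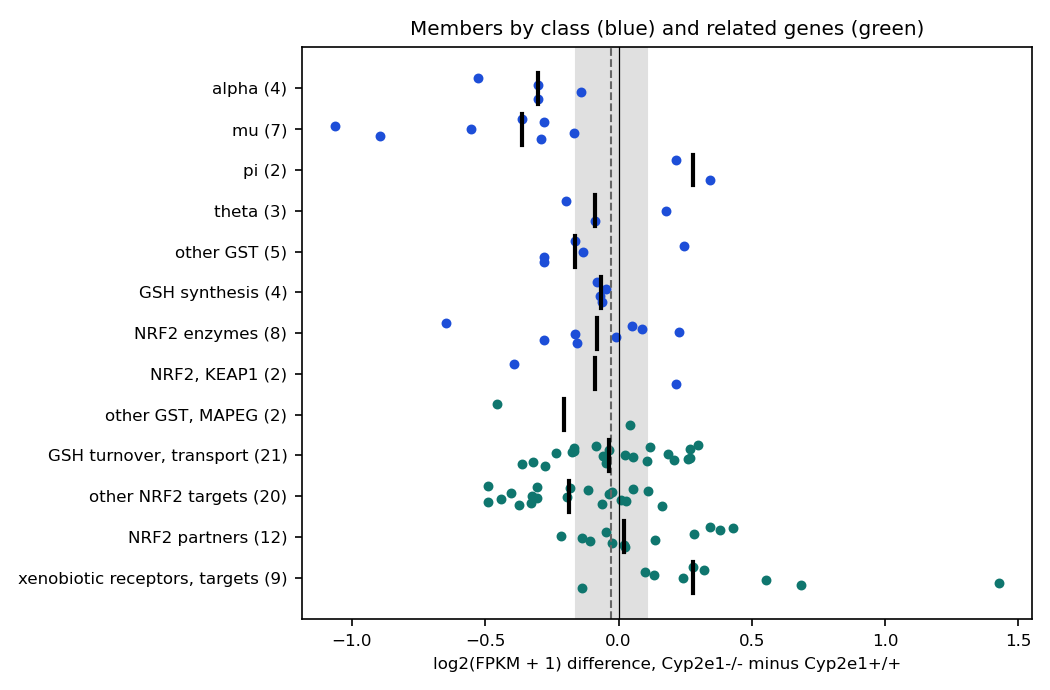
Points give the log2(FPKM + 1) difference, knockout minus wild type, of each tested member by class (blue) and of related genes from fixed lists (green), with the number of genes in brackets and black bars at the medians. The grey band holds the middle quartiles of all 9968 tested genes (-0.16 to 0.11) and the dashed line their median of -0.028. The mu and alpha medians lie farthest to the left, outside the band, and the pi and xenobiotic receptor medians lie right of it.

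Replicate 1 decided how many members passed. Without knockout replicate 1, 4 of 35 members passed (limma; Gstm3 and Gstm6 lower, Gstp1 and Gstp2 higher), where 2.12% of tested genes passed. Without replicate 1 of both genotypes, a comparison of 2 libraries with 2, 11 of 35 passed, 7 lower (Gsta1, Gstm1, Gstm3, Gstm6, Mgst1, Nqo1 and Nfe2l2) and 4 higher (Gstp1, Gstp2, Gstt2 and Gsto1), where 11.9% of tested genes passed, 4.95% lower and 6.92% higher. In 27 of the 35 members knockout replicate 1 lay on the wild type side of both other knockout libraries, which held for 48.8% of all tested genes. The knockout values lay wholly below those of wild type in 17 members and wholly above in 7 without knockout replicate 1, against 16.1% and 18.3% of tested genes (34.4% in either direction). Without replicate 1 of both genotypes these were 18 and 8 members, against 28.5% and 27.7% (56.2% in either direction). No member passed (limma, 0 of 35 each time) without knockout replicate 2 or 3, where 0.291% and 0.371% of tested genes passed, or without wild type replicate 1, 2 or 3, where 1.17%, 0.321% and 0.321% passed. None passed either with a pseudocount of 0.1 or 0.5 (0.642% and 0.702% of genes), a minimum of 5 FPKM (0.624%), no filter (0.201%), median-ratio scaling (0.672%), quantile normalization (0.722%) or no trend (0.562%). With sample quality weights 9 passed, where 11.5% of genes did.

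Markers of other liver cells were read beside these values. Of 11 tested macrophage markers 10 had a negative log2 fold change and 1 passed as lower (limma). Over all tested genes 55.8% were negative and 29 of 9968 passed as lower. None of the macrophage markers passed with the replicate block or median-ratio scaling. Without knockout replicate 1, 4 passed as lower, against 0.873% of tested genes. Without replicate 1 of both genotypes 8 passed as lower, against 4.95%, and all 11 were negative with a median of -0.73. The summed level over 12 markers was 218 FPKM in knockout replicate 1, 161 and 125 FPKM in knockout replicates 2 and 3, and 216 to 240 FPKM in wild type. Of 12 sinusoidal endothelial markers 11 had a negative log2 fold change and none passed, with a summed level of 106 to 152 FPKM in the knockout libraries against 122 to 157 FPKM in wild type. Of the 10 cholangiocyte markers 8, Krt19, Krt7 and Epcam among them, were under 1 FPKM in every library. Red blood cell markers summed to 400 FPKM in replicate 1 of the knockout and 542 FPKM in that of wild type, against 202 to 310 FPKM in the other 4 libraries, and 5 of the 9 were under 1 FPKM in every library. Of the 4 tested red blood cell markers 2 had a negative log2 fold change, the lowest at -2.23, and 1 passed as lower (limma). With the replicate block, with median-ratio scaling and in both sets without replicate 1, 1 also passed as lower. Pericentral hepatocyte markers, from the zone where many transferases are most abundant, summed to 1189 to 1263 FPKM in the knockout libraries against 1160 to 1289 FPKM in wild type, with overlap. The part of these cell types in the values of the members was not tested.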

How the data were processed

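Libraries were made from liver RNA of 6 samples, 3 per genotype, with an Illumina TruSeq kit, per the labels' protocols. The submitters' processing notes name HISAT and mm10. Not given in the sources used here: program, annotation and strand setting of the fragment counts. The table the authors deposited holds FPKM, per its header. Depth is not stated. Low values of transcripts of 450 to 1200 bases lay on steps (65.4% to 72.4% within 0.15 of a whole step, 30% by chance), which put the depth at about 8.05 to 10.8 M fragments.

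Values were tested with limma 3.58.1 (R 4.3.3; lmFit and eBayes, trended) after a log2(FPKM + 1) transform, keeping genes that reached 1 FPKM in 3 or more libraries, and adjusted by Benjamini-Hochberg over 9968 genes; the fit was tested on simulated data. Levels are mean FPKM ± SD. Positions and promoters came from RefSeq (GRCm38.p6, the assembly that mm10 names), and shared 31-base words from GENCODE M21 transcripts. Of 44 member promoters, 40 had their bases after the start site in a transcript of the same gene in sense direction.

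The members and lists were chosen with earlier results of these data known. Values in every library were given by rule for tested members without overlap, the most abundant member of each class and the 3 members of widest spread, and from each pathway list for the genes past the threshold or else the 2 most abundant. Other genes were named after their values were seen.

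Replicate numbers were taken from titles, and the labels do not say that they pair libraries. Deviations from the genotype mean correlated at 0.30, 0.198 and 0.157 between libraries of the same number, all above 0.1, so a fit with the number as a block stands beside the main one. The third knockout library was closer to the second of wild type (0.212) than to its own number. Other alternatives were the pseudocount, the filter, scaling, sample weights, and leaving out libraries. One marker list is not reported here.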

Additional observations from a re-analysis of the deposited data

How the results depend on the processing

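The number of members past the threshold was 0 of 35 with all libraries and remained 0 with a pseudocount of 0.1 or 0.5, with no filter, with a minimum of 5 FPKM, with median-ratio scaling or quantile normalization, and without the trend. It was 1 with the replicate block, 9 with sample quality weights, 11 without replicate 1 of both genotypes, and 0 to 4 when leaving out each library in turn. The median log2 fold change of the members stayed negative throughout. Members without overlap numbered 6, where 15.4% of tested genes did not overlap. They numbered 26 without replicate 1 of both genotypes, where 56.2% of tested genes did not overlap. Over the single libraries left out they numbered 7 to 24. The 24 came without knockout replicate 1, where the share was 34.4%, and the share was not computed for the other single libraries. Genes past the threshold numbered 76, against 36 with a minimum of 5 FPKM, 32 with no filter, 1151 with sample quality weights, 1183 without replicate 1 of both genotypes and 29 to 211 over the single libraries left out.

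Of 558 member values under 16 alternatives, 513 kept direction and side of the threshold, 25 newly passed it and 20 changed sign, in 10 members whose log2 fold changes were near 0 or widely spread. The cause was not tested. Without replicate 1 of both genotypes the log2 fold change was 0.011 for Gstm5, 0.064 for Gsr and 0.111 for Ephx1. With sample quality weights it was 0.001 for Gsr and 0.096 for Ephx1, and with median-ratio scaling 0.018 for Ephx1. Leaving out each library in turn, it ranged from -0.321 to 0.029 for Gstm5, -0.022 to 0.656 for Gstp1, -0.325 to 0.098 for Gstt3, -0.618 to 0.076 for Mgst3, -0.205 to 0.019 for Gclc, -0.101 to 0.009 for Gclm, -0.177 to 0.117 for Gsr, -0.011 to 0.124 for Txnrd1, -0.015 to 0.188 for Srxn1 and -0.059 to 0.058 for Ephx1. The replicate block changed the call of Gstm6 and of no other member. Depth limits Gsta1, Nqo1, G6pdx and Cbr3, which rest on at most about 35 fragments a library.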
